A study of Homo sapiens with 10 samples.

Results

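The matrix metalloproteinases (MMPs), the ADAMTS proteases and the tissue inhibitors of metalloproteinases (TIMPs) set how fast the extracellular matrix is cut. The genes were taken by name from the protein-coding genes of the GENCODE annotation on the human genome build hg19: every gene named MMP, ADAMTS or TIMP followed by its number. This gave 46 genes (23 MMP, 19 ADAMTS and 4 TIMP) out of 20098 protein-coding genes on chromosomes 1 to 22 and X. The rule used the gene names alone, and the group was chosen with earlier results of these data known. A run of 9 MMP genes at 11q22 on chromosome 11 was treated as 1 unit as well as gene by gene.

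MMPs and ADAMTS enzymes use a zinc ion to cut collagens, proteoglycans, fibronectin and other matrix proteins, and most are made as inactive precursors. The TIMPs bind the active site and block it, and TIMP3 also blocks several ADAMTS enzymes. Tumour cells that leave the breast duct have to cross a basement membrane rich in type IV collagen, which several of these enzymes can cleave.

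The series profiled MDAMB231, a human breast cancer line, grown in DMEM with 5% serum and given no treatment. Formaldehyde-assisted isolation of regulatory elements (FAIRE), which recovers open DNA after fixing cells in 1% formaldehyde, and chromatin immunoprecipitation of H3K4me3, H3K27Ac and H3K4me1 were each sequenced from 2 samples, with 1 input for FAIRE and 1 for the histone marks. The authors combined the samples of an assay into 1 list of peaks, so 10 samples stood behind 4 lists. H3K4me3 is a histone mark of promoters, H3K4me1 of enhancers and their flanks, and H3K27Ac of both when active.

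A peak is a stretch of genome where an assay gave more reads than its input. Peaks of the histone marks carried a score, 10 times the negative base 10 logarithm of the p value, and every histone list started at 50, a p of 1e-05. Scores stopped at or near 3100, a ceiling reached by 56.8% of H3K4me3 peaks and 10.5% of H3K27Ac peaks, so peaks at 3100 could not be ranked against each other. FAIRE peaks carried a height, a measure of read pile-up whose median was 61.089. The lists held 18019 peaks for H3K4me3, 37495 for H3K27Ac, 26771 for H3K4me1 and 46552 for FAIRE, with median widths of 2524, 2664, 3041 and 913 bp. A promoter was any annotated start site of a gene widened by 1 kb on both sides, and a window was the gene widened by 50 kb. A single shared base placed a peak at a promoter or in a window. The lists gave no read counts, and sequencing depth was not analysed here. A single list per assay left no replicate error to attach to any count.

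Genes that mark this kind of cell were looked up first. The mesenchymal genes VIM, AXL, CD44, CAV1 and ZEB1 had a peak of all 4 lists at their promoters, 5 of 5, against 13.1% of all genes. The luminal genes ESR1, PGR, CDH1, EPCAM, GATA3 and FOXA1 were taken in advance as genes without peaks, and here the result went the other way, because 5 of the 6 had an H3K4me3 peak (all genes 67.3%) and 3 had an H3K27Ac peak (all genes 63.5%) at the promoter. EPCAM had all 4 lists at its promoter (H3K4me3 3100, H3K27Ac 1255.09, H3K4me1 68.31 and FAIRE 56.142), the same state as the mesenchymal genes. GATA3 had H3K4me3 at 2394.69 with H3K27Ac at 383.07, and FOXA1 had H3K4me3 at 2735.33 with FAIRE at 51.498. ESR1 and PGR had H3K4me3 alone, at scores of 1258.36 and 399.5. CDH1 lacked H3K4me3 but had H3K27Ac (538.38) and a FAIRE peak of height 31.719. PTPRC, CD3E, CDH5 and ALB, genes of other cell types, had no promoter peak in any list. PECAM1 was not analysed here.

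At the promoters of the 46 genes, H3K4me3 peaks were present at 21 (45.7%), against 67.3% of all 20098 genes. H3K27Ac peaks were present at 18 (39.1%), against 63.5% of all genes. H3K4me1 peaks were present at 6 (13.0%), against 20% of all genes, and FAIRE peaks at 12 (26.1%), against 39.3%. At these settings the share of marked promoters was thus lower in the group than in the annotation for every list. The gaps depended on the settings: for H3K4me1 the order was lost with peak centres (8.70% against 8.64%), and without peaks shared with other genes' promoters, a setting added after the data had been seen, the gaps narrowed, to 41.3% against 48.9% for H3K4me3 and 26.1% against 28.9% for FAIRE. The H3K4me1 count fell to 3 with start sites of protein-coding transcripts only and to 2 with the canonical start. With peaks of at least the median height the FAIRE count fell to 5. Where a promoter of the group had H3K4me3, H3K27Ac was also present at 17 of 21 (81.0%; all genes 91%) and FAIRE at 9 of 21 (42.9%; all genes 55.5%). No peak of any list lay at 21 of the 46 promoters (45.7%), against 29.3% of all genes.

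The wider windows gave a different picture. H3K4me3 peaks lay within 50 kb of 35 genes of the group (76.1%), against 85.4% of all genes, and H3K27Ac peaks within 50 kb of 41 (89.1%), against 86.7%, an order that turned with windows of 10 kb (30 genes or 65.2%, against 76%). For H3K4me1 the count was 37 (80.4%), against 62.7% of all genes, and for FAIRE it was 44 (95.7%), against 85.1%. Only 1 gene, ADAMTS5, had no peak of any list in its window (2.17%), against 7.57% of all genes. Among the 21 genes with a bare promoter, 16 had H3K27Ac and 15 had H3K4me1 within 50 kb (76.2% and 71.4%). The shares were 60.1% and 41.6% of the 5886 genes of the annotation with bare promoters. H3K4me3 was near 11 of the 21 (52.4%, against 53.5%) and FAIRE near 19 (90.5%, against 62.8%). Neighbours at 11q22 shared some of these peaks, and of the 14 bare genes elsewhere 12 had H3K27Ac and 9 had H3K4me1 (85.7% and 64.3%). For ADAMTS2, ADAMTS18, MMP9 and MMP21 the H3K27Ac peaks were all at promoters of other genes. The median window was 129.249 kb for the group and 127.246 kb for all genes. Some windows of the group were far larger, such as 470.569 kb at ADAMTS17 and 468.485 kb at ADAMTS12. The upper quartile of all genes was 171.426 kb. A larger window can hold more peaks, and how far window size bears on these shares was not tested. The bars of promoter and window shares show both sets of percentages.

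**Figure D1:**
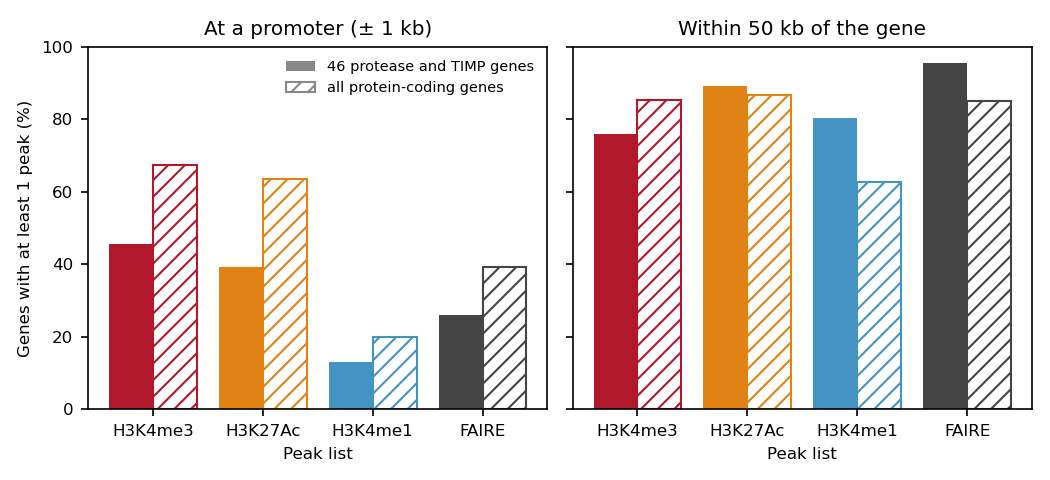
Share of genes with at least 1 peak of each list at a promoter and within 50 kb, for the 46 protease and inhibitor genes and for all 20098 protein-coding genes.

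The combinations of lists at a promoter split the 25 marked genes into 8 patterns, set out gene by gene in the grid of promoter peaks. H3K4me3 with H3K27Ac and nothing else was found at 7 promoters (ADAMTS7, ADAMTS14, MMP15, MMP16, MMP17, MMP19 and TIMP3), a pattern of 20.2% of all genes. H3K4me3, H3K27Ac and FAIRE together were found at 6 (ADAMTS1, ADAMTS9, ADAMTS17, MMP11, MMP14 and TIMP1), a pattern of 23.5% of all genes. All 4 lists were found at 3 (ADAMTS3, ADAMTS6 and ADAMTS15), a pattern of 13.1% of all genes. H3K4me3 alone was found at 4 promoters (ADAMTS19, MMP25, MMP28 and TIMP4), a pattern of 4.95% of all genes. The remaining patterns were held by TIMP2 (all but FAIRE), ADAMTS12 (all but H3K4me3), MMP1 and MMP2 (FAIRE alone) and MMP20 (H3K4me1 alone). All 4 TIMPs, 9 of 19 ADAMTS genes and 8 of 23 MMP genes had H3K4me3 at a promoter (all genes 67.3%). No promoter was bare among the 4 inhibitors, although the only peak of TIMP4 also lay at another gene's promoter, while 9 ADAMTS and 12 MMP promoters were bare (all genes 29.3%).

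**Figure D2:**
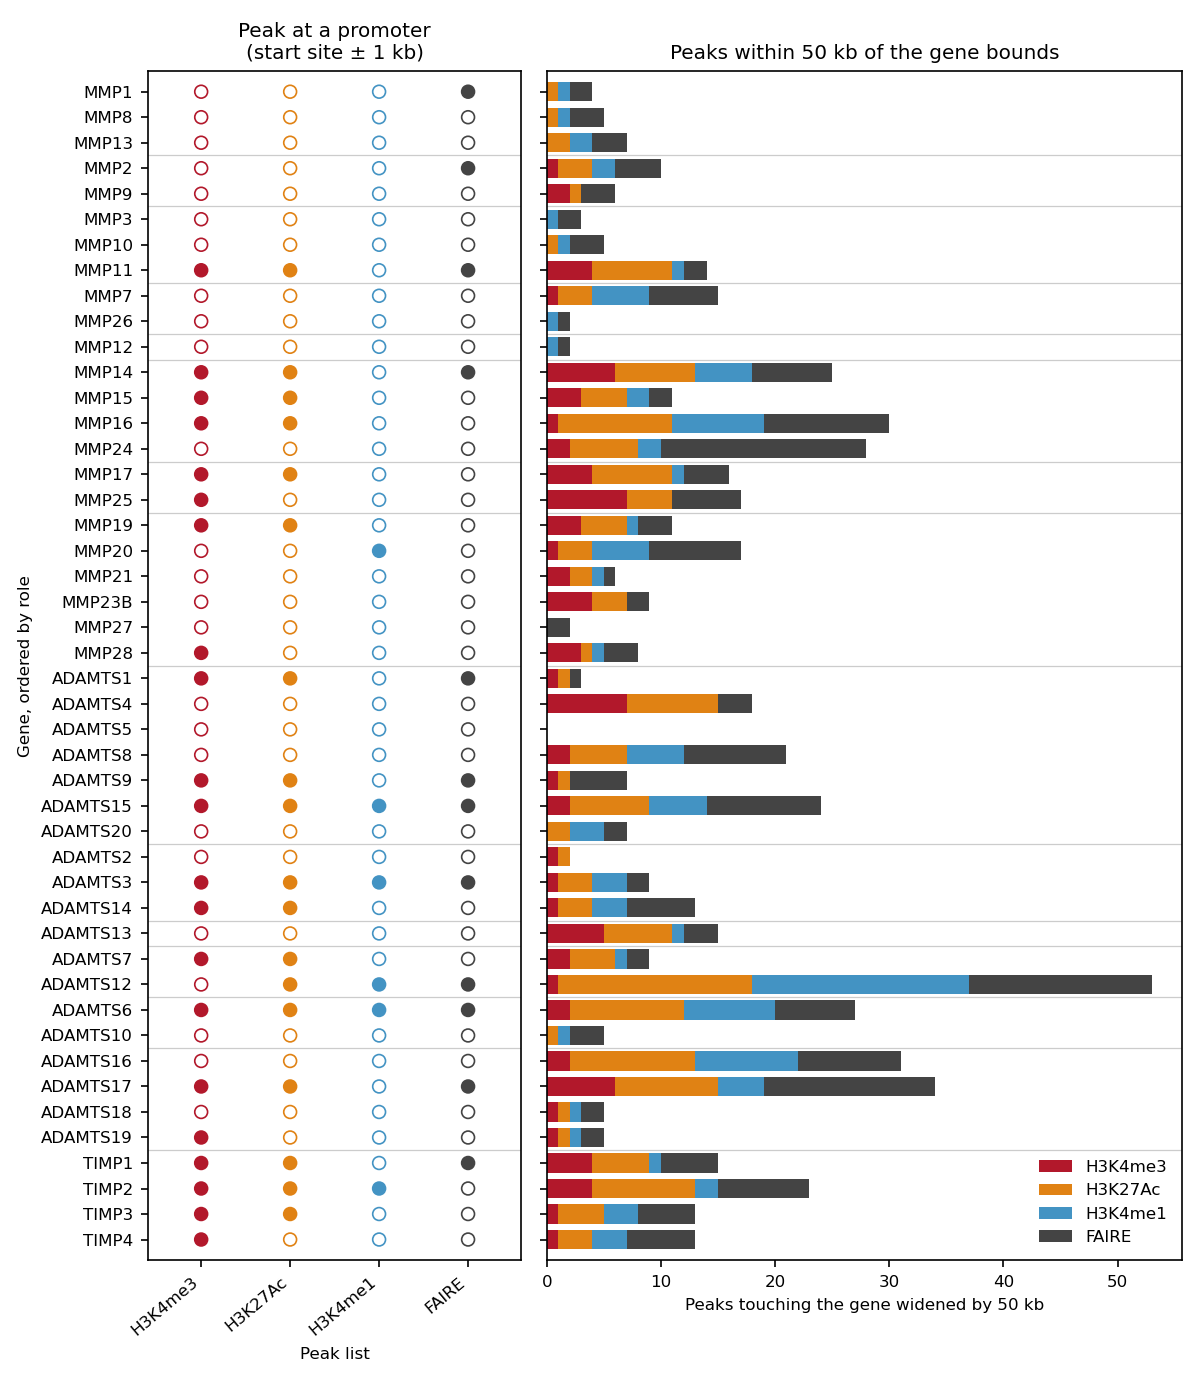
Peaks at the promoter of each of the 46 genes, arranged by role, with 1 column per list. Bars beside them chart the peak counts by list within 50 kb of each gene.

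The 11q22 cluster holds MMP7, MMP20, MMP27, MMP8, MMP10, MMP1, MMP3, MMP12 and MMP13 and spans 435 kb (chr11:102391239-102826461). With 50 kb added on both sides it contained no other protein-coding gene, and none of its peaks lay at the promoter of a protein-coding neighbour. Promoters of non-coding genes were not looked up. None of the 9 genes had H3K4me3 or H3K27Ac at a promoter (all genes 67.3% and 63.5%), 1 had H3K4me1 (20%), 1 had FAIRE (39.3%) and 7 were bare (29.3%). The widened cluster held 1 H3K4me3 peak, 7 H3K27Ac peaks, 11 H3K4me1 peaks and 17 FAIRE peaks. Per Mb this was 1.87, 13.1, 20.6 and 31.8, against 5.93, 12.3, 8.82 and 15.3 for the genome. Without the added 50 kb the densities were 2.30, 9.19, 16.1 and 29.9, so for H3K27Ac the order turned. The cluster was therefore poor in the promoter mark and held more H3K4me1 and FAIRE peaks per Mb than the genome average. Its only H3K4me3 peak scored 55.58, just over the lowest score listed, was 805 bp wide and lay between genes, 29.7 kb from the start of MMP7. The map of the cluster shows the peaks in separate groups with empty stretches between them.

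**Figure D3:**
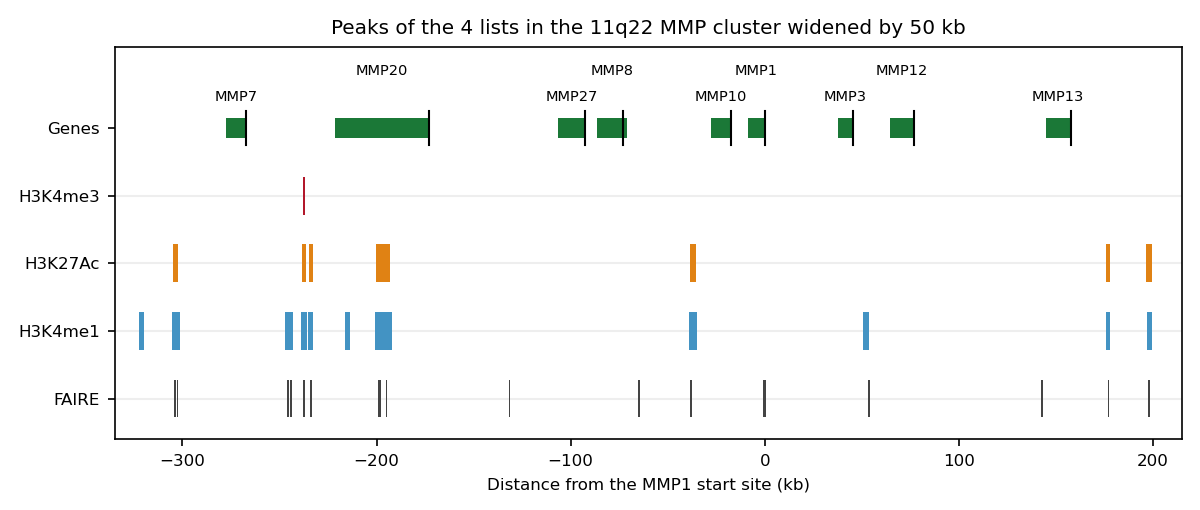
Peaks of the 4 lists across the 11q22 cluster widened by 50 kb on both sides, with the 9 MMP genes drawn above.

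The strongest group of peaks in the cluster lay in an intron of MMP20, which encodes the enamel protease enamelysin. An H3K27Ac peak 7055 bp wide with the ceiling score of 3100 (chr11:102468607-102475661) coincided with an H3K4me1 peak of score 1276.19, 8390 bp wide, and with 3 FAIRE peaks of heights 38.476, 112.206 and 107.615. Its near edge was 20.4 kb from the main start of MMP20. The same gene had the only H3K4me1 promoter peak of the cluster, with a score of 71, at an alternative start 41.7 kb inside the gene. A further group beyond MMP13 had H3K27Ac at 2345.44 (chr11:102865579-102868578), H3K4me1 at 218.3 and FAIRE at 99.789, and its near edge was 39.1 kb from the MMP13 start.

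MMP1 encodes interstitial collagenase, and a FAIRE peak 1634 bp wide covered its main start (chr11:102668041-102669674). Its height of 55.43 was under the median of the FAIRE list. No histone peak accompanied it: the nearest H3K27Ac peak was 35.2 kb away and the nearest H3K4me3 peak was 237 kb away. MMP8, the collagenase of neutrophils, had its nearest FAIRE peak at 7.88 kb and its nearest H3K27Ac peak at 34.7 kb. MMP13, a collagenase that is active on type II collagen, had FAIRE at 14.2 kb and H3K27Ac at 18.4 kb. The collagenases therefore shared 1 promoter peak between the 3 of them.

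MMP3 and MMP10 encode stromelysins, which cut a broad set of matrix proteins and activate other MMP precursors. MMP3 had an H3K4me1 peak 5.30 kb away (score 139.37) and FAIRE 7.54 kb away (height 77.724), but its nearest H3K27Ac peak was 80.7 kb away. The histone peaks nearest to MMP10 lay between MMP8 and MMP10, where H3K27Ac scored 266.15 (chr11:102630357-102633687), H3K4me1 268.18 and FAIRE reached 89.199, 17.7 kb from the MMP10 start by the H3K27Ac edge. MMP7, or matrilysin, which lacks the haemopexin domain, had H3K4me1 at 20.1 kb and H3K27Ac at 29.3 kb. MMP12, the elastase of macrophages, lay in the widest empty stretch of the cluster, 88.2 kb without a peak, with its nearest H3K27Ac peak 99.1 kb away. MMP27, a little studied MMP kept in the endoplasmic reticulum, lay in an empty stretch of 65.7 kb that reached MMP8, and its nearest peak was FAIRE at 27.1 kb.

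Promoter sequences were read for the 11q22 genes that had an entry in the table of RefSeq start sites on the GRCh38.p14 build: MMP7, MMP8, MMP10, MMP20 and MMP27. Each entry was placed on hg19 by an exact match. The 4 with a pattern described below are given as the bases before the annotated exon that holds the start. They read 5 prime to 3 prime on the minus strand of chromosome 11, and positions are counted from the start, not from the end of the printed bases. Capitals mark 3 short patterns searched on both strands: the AP-1 site TGANTCA, the TATA box TATAAA and the ETS-type site AGGAAG, read as CTTCCT on the reverse strand. Of all 35116 promoters of the table, 7.71% held the AP-1 pattern, 11.5% the TATA box and 33.6% the ETS-type site. MMP10 (chr11:102651360-102651609) and MMP7 (chr11:102401482-102401728) both had the AP-1 pattern from 67 bases before the start, and the TATA box began 31 and 30 bases before it. MMP20 (chr11:102496064-102496313) had the AP-1 pattern at 112 and the TATA box at 72 bases before the start. MMP8 (chr11:102595735-102595935) had a TATA box at 110 bases before the start, and MMP27 had none of the patterns. MMP7 also had the ETS-type site on the reverse strand at 169 and 145 bases before the start. No peak of any list overlapped these 5 entries, and a match to a pattern says nothing about whether a protein was bound.
MMP7: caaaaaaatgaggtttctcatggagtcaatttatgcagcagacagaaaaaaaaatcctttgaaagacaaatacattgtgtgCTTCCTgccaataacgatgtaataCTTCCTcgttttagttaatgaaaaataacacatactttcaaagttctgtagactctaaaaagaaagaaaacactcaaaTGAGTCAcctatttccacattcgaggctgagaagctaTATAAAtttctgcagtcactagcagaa
MMP8: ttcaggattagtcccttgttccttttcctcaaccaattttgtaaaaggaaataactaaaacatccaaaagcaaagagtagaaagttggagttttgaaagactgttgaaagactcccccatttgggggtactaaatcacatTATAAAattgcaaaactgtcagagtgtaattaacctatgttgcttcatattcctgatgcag
MMP10: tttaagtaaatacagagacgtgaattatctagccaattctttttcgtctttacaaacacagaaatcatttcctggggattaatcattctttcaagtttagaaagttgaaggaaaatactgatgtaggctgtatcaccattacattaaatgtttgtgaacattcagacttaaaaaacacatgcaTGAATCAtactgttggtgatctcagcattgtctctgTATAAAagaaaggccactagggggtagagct
MMP20: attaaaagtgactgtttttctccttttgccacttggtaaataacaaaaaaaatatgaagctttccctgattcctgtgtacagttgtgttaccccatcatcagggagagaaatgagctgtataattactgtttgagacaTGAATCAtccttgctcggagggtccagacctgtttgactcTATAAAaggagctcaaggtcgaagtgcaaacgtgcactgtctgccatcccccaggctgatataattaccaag

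Outside the cluster, 14 MMP genes had 8 promoters with H3K4me3 (all genes 67.3%), 6 with H3K27Ac (63.5%), 3 with FAIRE (39.3%) and 5 with none (29.3%). The gelatinases MMP2 and MMP9 cut denatured collagen and the type IV collagen of basement membranes. MMP2 had a FAIRE peak alone, of height 29.982, near an alternative start 2.36 kb past the main one. Its nearest H3K27Ac peak (490.27) was centred 7.83 kb upstream of the main start in an intron of a longer transcript. MMP9 had a bare promoter. Its nearest H3K4me3 peak scored 2225.3 and lay at the promoter of SLC12A5, while a FAIRE peak of height 84.151 was centred 15.3 kb upstream of MMP9. Neither gelatinase thus had a histone peak at its promoter.

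MMP11 encodes stromelysin 3, which is activated inside the cell by furin. It had H3K4me3 at 1710.12 and H3K27Ac at 213.08 over its main start, and a FAIRE peak of height 42.811 at an alternative start 4.79 kb away. Further alternative starts of MMP11 lay under a peak pair shared with the CHCHD10 promoter (H3K4me3 3100, H3K27Ac 361.84), so its highest values were not those of its main start. MMP26, the second matrilysin, had no promoter peak, and its window held 1 H3K4me1 peak (205.04) and 1 FAIRE peak (89.431), both in an intron.

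Membrane-type MMPs act at the cell surface, and MMP14 is the one that activates the MMP2 precursor. MMP14 was the only MMP with H3K27Ac at the ceiling score at a promoter. It had H3K4me3 and H3K27Ac both at 3100 and 4537 and 4852 bp wide, with FAIRE of height 79.617 (chr14:23305249-23306126). H3K4me3 was also at 3100 in MMP11, MMP15, MMP16, MMP17 and MMP25. Of genes with an H3K27Ac promoter peak, 81.8% had one no wider than that of MMP14. MMP15 had H3K4me3 at 3100 but H3K27Ac at only 99.86, and 2.88% of genes with an H3K27Ac promoter peak scored as low or lower. MMP16 had H3K4me3 at 3100 and H3K27Ac at 348.38, 4636 and 4544 bp wide. MMP24 had a bare promoter with an H3K27Ac peak (1867.28) at 9.12 kb. The GPI-anchored MMP17 had H3K4me3 at 3100 (5833 bp) and H3K27Ac at 1686.71 (5877 bp). MMP25, also anchored by a lipid, had H3K4me3 at 1984.84 over the main start and 3100 at 882 bp from an alternative start. An H3K27Ac peak of 613.38 overlapped the latter but was not within 1 kb of a start. So 5 of the 6 membrane-type genes had H3K4me3 at a promoter (all genes 67.3%), whereas 0 of 9 had it at 11q22.

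The other MMP genes were mostly bare or weakly marked. MMP19, which cuts basement membrane proteins, had H3K4me3 at 699.77 and H3K27Ac at 378.9, 1504 and 1933 bp wide. MMP28, or epilysin, made in skin and testis among other tissues, had H3K4me3 alone at 1858.47, and its nearest H3K27Ac peak was 10.6 kb away at the TAF15 promoter. MMP21, which is needed to set left and right in the embryo, and MMP23B had no promoter peak. The H3K4me3 peaks near MMP23B lay at promoters of FNDC10, MIB2 and CDK11B. MMP23B has a nearly identical copy, MMP23A, and the authors kept only reads with a mapping quality of at least 30, so missing peaks at MMP23B are uncertain.

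Among the ADAMTS genes that cut proteoglycans, ADAMTS1, ADAMTS9 and ADAMTS15 had promoter peaks and ADAMTS4, ADAMTS5, ADAMTS8 and ADAMTS20 had none. ADAMTS1, which cuts versican and aggrecan, had H3K4me3 at 3100 (4865 bp), H3K27Ac at 706.53 (4893 bp) and FAIRE at 47.014, and no other peak in its window. ADAMTS9, which cuts versican, had H3K4me3 at 3100 (5376 bp), H3K27Ac at 605.33 and FAIRE at 66.842, the last at 1.54 kb from the main start. ADAMTS15 had H3K4me3 at 3100, H3K27Ac at 552.64, H3K4me1 at 146.05 and FAIRE at 50.676, all over its single start. Its neighbour ADAMTS8 had a bare promoter, and an H3K4me3 peak of 1178.73 with H3K27Ac of 707.78 lay between the pair, centred 6.35 kb upstream of ADAMTS8 and 13.7 kb upstream of ADAMTS15 for H3K4me3. Those peaks were counted in both windows. ADAMTS4, an aggrecanase, had 7 H3K4me3 peaks in its window, all at promoters of other genes, and 8 H3K27Ac peaks, of which 7 were at such promoters and 1 (374.72) was at none. ADAMTS5, the other chief aggrecanase, had its nearest H3K4me3 peak 120 kb away, H3K27Ac 120 kb away, FAIRE 124 kb away and H3K4me1 575 kb away. The main aggrecanases therefore both had bare promoters, ADAMTS4 in a crowded window and ADAMTS5 in an empty one.

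ADAMTS2, ADAMTS3 and ADAMTS14 remove the amino-terminal propeptide of procollagens. ADAMTS3 had H3K4me3 at 3100, H3K27Ac at 1256.15, H3K4me1 at 115.43 and FAIRE at 46.197 around its main start. ADAMTS14 had H3K4me3 at 2887.7 and H3K27Ac at 338.26, and ADAMTS2 had a bare promoter with peaks only at the ZNF354C promoter in its window. ADAMTS13, the protease of von Willebrand factor, had a bare promoter too, and the closest H3K4me3 peak sat at the REXO4 promoter 3.64 kb away.

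ADAMTS7 and ADAMTS12 cut cartilage oligomeric matrix protein (COMP). ADAMTS7 had H3K4me3 at 3100 and H3K27Ac at 116.37, and both peaks also lay at the promoter of MORF4L1, so they cannot be given to ADAMTS7 alone. ADAMTS12 was the only gene of the group with H3K27Ac at a promoter but no H3K4me3, a state of 0.985% of all genes when H3K4me1 and FAIRE are also present. Within 1 kb of its main start H3K27Ac scored 1517.08, H3K4me1 186.57 and FAIRE reached 79.304. Beside an alternative start 51.7 kb inside the gene lay an H3K27Ac peak of 2286.74 that was 20071 bp wide (chr5:33840496-33860566), at least as wide as the H3K27Ac promoter peak of 99.8% of genes that had one. The single H3K4me3 peak of its window, 691.73, was 32.1 kb from the main start.

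ADAMTS6 and ADAMTS10 act on fibrillin microfibrils. ADAMTS6 had H3K4me3 at 3100 and H3K27Ac at 2807.05 over its main start with FAIRE at 56.763, and an alternative start 283 kb into the gene had H3K27Ac at 3100 (10069 bp), H3K4me1 at 306.15 and FAIRE at 139.385. ADAMTS10 had a bare promoter. Of the ADAMTS genes with less settled substrates, ADAMTS17 had H3K4me3 at 3100 with FAIRE at 105.843, but its H3K27Ac peak scored only 67.88. ADAMTS19 had H3K4me3 alone at 133.26, and the nearest H3K27Ac peak was 210 kb away, inside the same gene. ADAMTS16 and ADAMTS18 had bare promoters. A start far inside the gene thus had the higher H3K27Ac score of ADAMTS6. ADAMTS17 and ADAMTS19 had H3K4me3 at the promoter with a low H3K27Ac score or no H3K27Ac peak.

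The 4 inhibitors differed in the H3K27Ac score that went with H3K4me3. TIMP1, a secreted inhibitor of most soluble MMPs, had H3K4me3 at 2343.52, H3K27Ac at 980.25 and FAIRE at 29.238 over its main start. TIMP2 inhibits MMPs and also helps MMP14 to activate the MMP2 precursor, and it had H3K4me3 and H3K27Ac both at 3100 (chr17:76918698-76923620 for H3K27Ac). Its only H3K4me1 promoter peak, 130.63, lay at alternative starts 51.2 to 51.3 kb into the gene. The TIMP2 window held 23 peaks, 9 of them H3K27Ac, among them 1 of 8018 bp at 3100 centred 7.67 kb upstream and intron peaks at 3002.06 and 3100. TIMP3, which binds to the matrix, had H3K4me3 at 3100 and H3K27Ac at 645.7, with stronger H3K27Ac of 3100 and 2504.05 centred 40.6 and 48.2 kb upstream. TIMP4, the inhibitor with the narrowest tissue range, had H3K4me3 alone at 306.76, and 3.02% of genes with an H3K4me3 promoter peak scored as low or lower. That peak also lay at a promoter of SYN2, the gene in which TIMP4 is nested. H3K27Ac peaks of 2825.96, 1144.93 and 3100 were centred 20.4, 29.3 and 35.1 kb upstream of TIMP4, overlapped by H3K4me1 peaks 6898 and 13975 bp wide. By H3K27Ac score the order of the promoters was therefore TIMP2, TIMP1, TIMP3 and then TIMP4 without a peak. By width TIMP3 (4480 bp) came before TIMP1 (2464 bp), and TIMP3 and TIMP4 both had H3K27Ac peaks at the ceiling score farther out.

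Promoter entries of the same table were available for TIMP1, TIMP3 and TIMP4, and capitals mark the same patterns. TIMP1 (chrX:47441585-47441806, plus strand) had the ETS-type site at 87 bases before the start, and TIMP4 (chr3:12200413-12200662, minus strand) had it at 76 bases. TIMP3 held none of the 3 patterns but was rich in CpG, with 72.7% G and C and an observed to expected CpG ratio of 0.788, as 46.9% of all promoters of the table were. H3K4me3 peaks overlapped all 3 entries, H3K27Ac those of TIMP1 and TIMP3, and FAIRE that of TIMP1.
TIMP1: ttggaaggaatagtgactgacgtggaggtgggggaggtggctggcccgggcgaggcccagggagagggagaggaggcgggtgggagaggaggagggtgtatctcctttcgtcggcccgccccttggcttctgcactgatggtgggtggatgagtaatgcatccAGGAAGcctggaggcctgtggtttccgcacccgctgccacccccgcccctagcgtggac
TIMP4: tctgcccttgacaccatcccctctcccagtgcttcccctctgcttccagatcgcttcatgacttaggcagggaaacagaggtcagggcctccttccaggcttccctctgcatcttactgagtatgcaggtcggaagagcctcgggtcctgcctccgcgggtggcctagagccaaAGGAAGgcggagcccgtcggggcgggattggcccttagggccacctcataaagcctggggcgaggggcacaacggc

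Entries of the table existed for 27 of the 46 genes (58.7%), which is under the 80% set beforehand. A comparison of promoter composition across the group was therefore void, and the sequences above serve as descriptions of single genes. Genes without an entry were ADAMTS1, ADAMTS4, ADAMTS5, ADAMTS8, ADAMTS9, ADAMTS15, ADAMTS16, MMP1, MMP2, MMP3, MMP9, MMP12, MMP13, MMP16, MMP17, MMP19, MMP25, MMP28 and TIMP2.

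The size of the promoter peaks was compared next. The highest H3K27Ac promoter peak had a median score of 625.515 in the 18 genes of the group that had one, against 1357.42 in all 12758 genes that had one. The middle 50% of all genes ran from 688.612 to 2376.72, as the plot of H3K27Ac scores shows. That range is a spread of single genes and cannot be used to judge a median of 18. These H3K27Ac peaks were not narrower, with a median width of 4075.5 bp against 3222 bp. H3K4me3 promoter peaks had a median width of 3059 bp against 2966 bp, and 15 of 21 were at the ceiling score, against 81.8% of all genes. FAIRE promoter peaks had a median height of 53.053 in 12 genes, against 69.187. H3K4me1 went the other way, with a median score of 138.34 in 6 genes, against 110.39. Of these highest H3K4me1 peaks only that of ADAMTS15 lay within 1 kb of the main start. ADAMTS12 entered with 600.41 at an alternative start, while the H3K4me1 peak at its main start scored 186.57. The medians of H3K27Ac score and FAIRE height were thus lower in the group than in all genes with such peaks, and the median widths were not smaller. Single genes went both ways, and 3 of 18 were at the ceiling score of H3K27Ac, against 15.8% of all genes with such a peak.

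**Figure D4:**
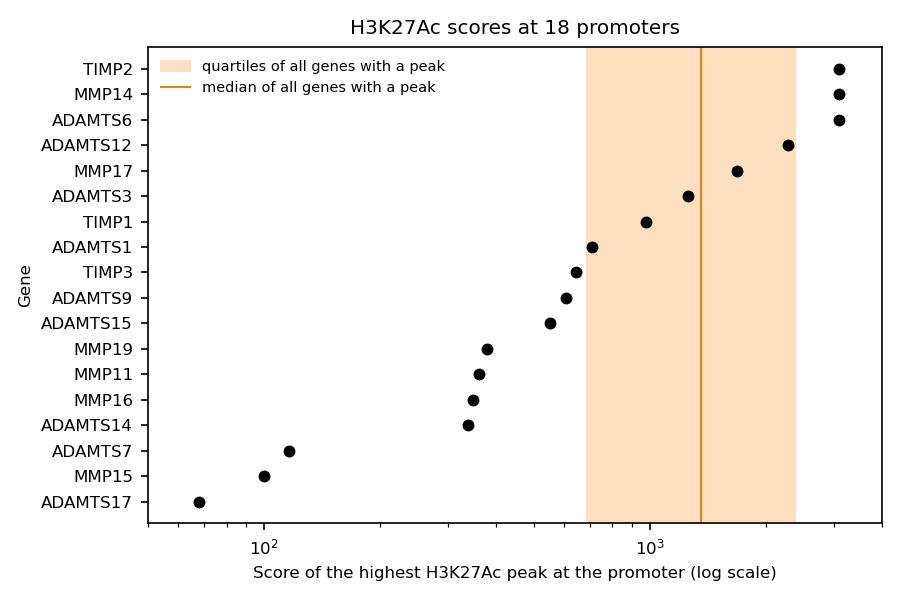
Score of the highest H3K27Ac peak at each promoter of the group that had one, beside the median and quartiles of all genes with such a peak.

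Within 50 kb the group had a median of 1 H3K4me3 peak, 3 H3K27Ac peaks, 1 H3K4me1 peak and 3 FAIRE peaks per gene, against 2, 3, 1 and 3 for all genes. Counted once each, the windows held 87 H3K4me3, 174 H3K27Ac, 106 H3K4me1 and 198 FAIRE peaks. The share at no promoter of any protein-coding gene was 25.3% for H3K4me3, 63.8% for H3K27Ac, 82.1% for H3K4me1 and 77.8% for FAIRE, close to the 28.9%, 64.2%, 82.3% and 80.6% of the whole lists. Of the H3K4me3 peaks near these genes, 42 of 87 lay at promoters of genes outside the group and 23 at promoters within it. In these windows an H3K4me3 peak therefore lay more often at a neighbour's promoter than at one of the group. The 23 include peaks shared with MORF4L1, CHCHD10 and SYN2, and no such split is given for the windows of all genes.

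The windows with the most peaks belonged mainly to large genes, as the chart of peak counts by list shows. Per 100 kb the order was another, with 22.2 peaks at MMP14, 18.7 at ADAMTS15 and 18.6 at MMP24, against 11.3 at ADAMTS12. ADAMTS12 had 53 peaks within 50 kb (1 H3K4me3, 17 H3K27Ac, 19 H3K4me1 and 16 FAIRE), and 43 of them were centred inside the gene away from any promoter. Among these was the highest H3K4me1 peak near any gene of the group, 1453.73 over 8740 bp (chr5:33803872-33812611). ADAMTS17 had 34 peaks and ADAMTS16 had 31. ADAMTS16, which cuts fibronectin, had none at its promoter, but its first H3K27Ac peak, at 3100, was centred 6.30 kb into the gene in an intron with H3K4me3 of 1189.23. MMP16 had 30 peaks, of which 27 were inside the gene and at no promoter. MMP24 had 28 peaks in a window of 150 kb, 18 of them FAIRE, and H3K27Ac peaks covered 30.6% of the window. That coverage came largely from the widest H3K27Ac peak near the group, 31366 bp at the UQCC1 promoter (chr20:33888247-33919612), where the highest FAIRE peak, 216.561, was also found. The highest H3K4me3 score, 3129.13, lay at the B4GALT3 promoter near ADAMTS4. Peaks inside the gene and away from promoters were thus the bulk of what was found at ADAMTS12, MMP16, ADAMTS16 and ADAMTS17, whereas the peaks near MMP24 lay almost all outside the gene.

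**Figure D5:**
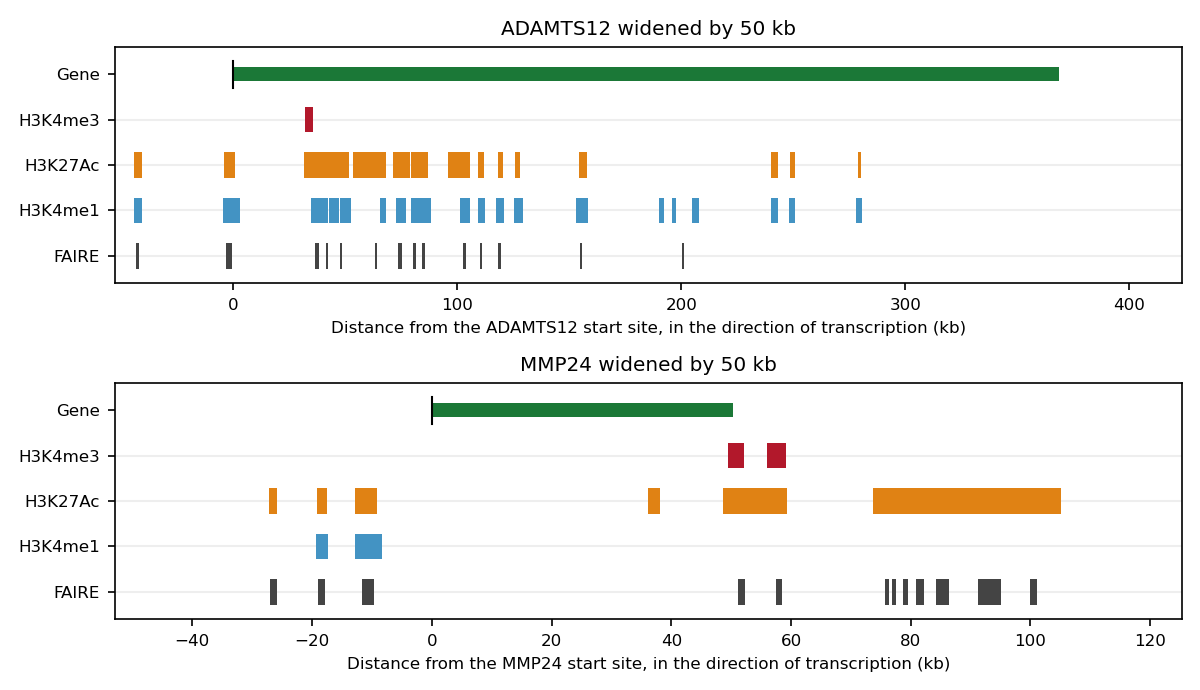
Peaks of the 4 lists within 50 kb of ADAMTS12 and of MMP24, by distance from the main start.

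Peaks inside the genes but away from promoters were counted over the group. Of the peaks centred in a gene of the group, 52 of 75 for H3K27Ac, 47 of 54 for H3K4me1 and 68 of 76 for FAIRE lay at no promoter. They fell in 14, 12 and 19 genes. For H3K4me3 it was 7 of 29 peaks in 6 genes. For all protein-coding genes the shares at no promoter were 49.0% for H3K27Ac, 72.8% for H3K4me1, 75.4% for FAIRE and 11.3% for H3K4me3, against 69.3%, 87.0%, 89.5% and 24.1% in the group. ADAMTS12, ADAMTS16, ADAMTS17 and MMP16 held 35 of the 52 H3K27Ac peaks and 34 of the 47 H3K4me1 peaks, so the shares of the group rested largely on 4 genes.

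Genes that act on or with the proteases were looked up at the same settings. The 12 genes that activate or inhibit the proteases had H3K4me3 at 9 promoters, H3K27Ac at 8, H3K4me1 at 3 and FAIRE at 5, and 3 were bare. The shares of all genes were 67.3%, 63.5%, 20%, 39.3% and 29.3%. PLAU and FURIN, which activate MMP precursors directly or through plasmin, had peaks of all 4 lists at the promoter, with H3K27Ac at 3100 in both. PLG, the source of plasmin, and the inhibitor A2M had none, and RECK, a membrane inhibitor of MMPs, had H3K4me3 at 3100 and H3K27Ac at 350.52. Of the related ADAM proteases, 7 of 9 had H3K4me3 at a promoter (all genes 67.3%), including ADAM17, while ADAM33 had no peak. Of the ADAMTS-like genes, whose proteins lack the protease domain, 6 of 7 had H3K4me3 and 1 was bare. Among the substrates, VCAN, FBN1, COL4A1 and FN1 had promoter peaks of at least 3 lists, and ACAN, VWF and COMP had none. Marked proteases and marked substrates did not always go together: VCAN, cut by ADAMTS1 and ADAMTS9, had a marked promoter, whereas ACAN, also cut by ADAMTS1, and COMP, cut by ADAMTS12, did not.

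In sum, MDAMB231 had promoter peaks at 25 of the 46 genes and none at 21 (45.7%, against 29.3% of all genes). MMP14, TIMP2 and ADAMTS6 were at the ceiling score for both H3K4me3 and H3K27Ac, in ADAMTS6 at different starts. For H3K27Ac these were 3 of the 18 genes with a promoter peak, against 15.8% of all genes with one. The 11q22 unit had no promoter with H3K4me3 or H3K27Ac but had an H3K27Ac peak at the ceiling score in an intron of MMP20. The peaks do not measure transcription, and which gene a peak away from promoters acts on was not tested.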

How the data were processed

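The 4 deposited peak lists were used as the authors made them, and the genes and lists were chosen with earlier results of these data known. The score of histone peaks is the one the authors' peak caller MACS wrote, and the FAIRE height is the read coverage the authors obtained with FindPeaks. The methods name BWA for alignment and Samtools for filtering, whereas the processing notes of the samples name TopHat. File starts counted from 0 were raised by 1 for printing. Genes came from GENCODE release 44 lifted to GRCh37. Values were given for all 11q22 genes, all TIMPs, genes with H3K4me3 and H3K27Ac or with exactly 1 list at the promoter, the 5 fullest windows, empty windows and the highest peak of each list. Values for MMP9, MMP26, ADAMTS4, ADAMTS8 and ADAMTS13, outside this rule, were added after the data had been seen. Genes outside the group were named where they shared a peak or as fixed lists of partners and markers. Overlaps were counted in Python 3.11.15 with numpy 2.4.6 and pandas 2.3.3, and figures were drawn with matplotlib 3.10.9. On 3000 simulated intervals the counts differed from bedtools 2.31.1 in 0 cases.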

Additional observations from a re-analysis of the deposited data

How the results depend on the processing

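Each of 12 counts was recomputed under other settings, 60 in all, and 53 stayed within 1.5 times the count reported above. The other 7 moved more. The H3K4me1 promoter count fell from 6 to 3 when only start sites of protein-coding transcripts were used, losing ADAMTS3, ADAMTS6 and MMP20, and to 2 with the single canonical start of each gene, a setting added after the data had been seen. The FAIRE promoter count fell from 12 to 5 when only peaks of at least the median height were kept, losing ADAMTS1, ADAMTS3, ADAMTS15, MMP1, MMP2, MMP11 and TIMP1. With windows of 10 kb instead of 50 kb, H3K4me1 was found near 24 genes instead of 37. At 11q22 a stricter score of 100 (p of 1e-10) left 0 H3K4me3 peaks instead of 1, and without the added 50 kb the unit held 4 H3K27Ac peaks instead of 7 and 7 H3K4me1 peaks instead of 11. The share of marked promoters was below that of all genes under 8 of 8 settings for H3K4me3, H3K27Ac and FAIRE and 7 of 8 for H3K4me1. Without peaks at promoters of other genes, also added after the data had been seen, the shares were 36.96% against 46.1% for H3K27Ac and 13.0% against 16.1% for H3K4me1. The cause of these shifts was not tested. No paired analysis was possible because only lists combined over the samples of an assay were used.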
